A study of Xenopus laevis with 30 samples.

Results

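The planar polarity and neural tube closure genes described here are vangl1, vangl2, prickle1, celsr1, ptk7, ror2, shroom3, fuz, intu and daam1, 10 genes chosen by name and followed through the development of the clawed frog Xenopus laevis. They were chosen with earlier results of these data known. A probe set, the group of short probes that reports 1 transcript on the array, belonged to the set if the platform annotation gave it a single symbol that was 1 of these names, with the .L or .S that marks the chromosome copy removed. This took 16 of the 32635 probe sets on the array and 8 of the 10 genes. No probe set carried celsr1 or fuz as its single symbol, and those genes were not analysed here. Xenopus laevis carries most genes on the L and S copies of its doubled genome, and the members were vangl1.L with 1 probe set, vangl2.L with 2, vangl2.S with 1, prickle1.L with 2, prickle1.S with 1, ptk7.L and ptk7.S with 1 each, ror2.L, shroom3.L and intu.S with 1 each, and daam1.S with 4.

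Total RNA came from wild-type whole embryos of mixed sex, with several embryos pooled for each sample, and was hybridised to 30 Affymetrix Xenopus laevis Genome 2.0 arrays. There were 2 biological replicates at each of 15 stages: cleavage at 2 and 5, the blastula at 9, the gastrula at 11, the neural plate at 13, the rising and meeting neural folds at 17 and 19, the closed tube at 21, the tailbud at 23, 26, 28 and 31, and the tadpole at 37-38, 43 and 48. The names of these periods follow the usual staging of this frog. The series has no treatment, mutant or dissected tissue, so the comparisons are between stages of untreated embryos.

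Planar polarity is the system by which the cells of a sheet share a direction: Frizzled and Dishevelled gather at one face of each cell and Vangl and Prickle at the opposite face, while Celsr lies at both and bridges neighbouring cells. In the frog the same proteins direct convergent extension, in which cells crawl between each other so that the mesoderm and the neural plate narrow and lengthen, and mutation of Vangl2, Ptk7 or Celsr1 leaves the neural tube open in mice. Closure also needs apical constriction, the narrowing of the outer face of neural plate cells that bends the plate, and some planar polarity effectors, Intu and Fuz among them, act in building cilia.

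Signals are the authors' linear intensity units, scaled on every array to the same trimmed mean, so each value is a share of the array's total signal rather than an amount per embryo. A change is the difference of mean log2 signals, later minus earlier stage, from 1 limma model over all 30 arrays, and "rose" or "fell" means an adjusted p under 0.05 after Benjamini-Hochberg adjustment over 23403 tested probe sets. The p-values measure the spread between the 2 pools of a stage, with the spread shared over stages. In simulated data the spread differed between stages, but the later stage of each comparison was given the spread of the earlier one. There this shared spread gave more false calls than the threshold allows, most of all from stage 2 to 5. A fit of only the stages compared came close to the threshold. Both its stages had equal spread by construction, so its false calls where they differ were not tested. In the real data that fit lost 2 member calls, ror2.L from stage 2 to 5 (adjusted p = 0.068) and ptk7.S from stage 19 to 21 (adjusted p = 0.072). It gained 6. These were prickle1.L (Xl2.12111.1.S1_at) and daam1.S (Xl2.25142.2.A1_s_at) from stage 2 to 5 and vangl2.S from stage 5 to 11. The others were a rise of shroom3.L and a fall of ror2.L from stage 13 to 17, and a fall of daam1.S (Xl2.25142.1.A1_at) from stage 13 to 21. Testing required a stage at which both arrays were above the median of their own array, which lay between 106 and 184 units. That median is used here as a floor: a stage below it gives only a bound, and folds against it are written "at least". A probe set under the median on 1 side of a comparison passed the filter only through brighter stages, so such a call is not independent of the filter. In whole embryos, fewer cells of a type and less RNA per cell cannot be told apart. Over all tested probe sets, replicate arrays correlated at 0.974 to 0.985 and all 30 arrays correlated best with their own replicate. The 12 poly-A control probe sets, RNAs added to the samples, lost signal along the course from a stage mean of 622 units at stage 11 to 168 at stage 43. Scaling to them in place of the total signal shifted every comparison: the median change over all probe sets in the test, 0.07 for stages 13 to 21 and -0.0019 for stages 21 to 31, became 0.56 and 0.61.

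Of the 16 member probe sets, 15 passed the filter. The remaining one, Xl2.10610.1.S1_at of vangl2.L, stayed under the median on all 30 arrays, with stage means between 7.06 and 64.0 units. It was not used further. An F test over the 15 stages called all 15 tested members, against 99.8% of all tested probe sets, so a change somewhere along the course did not set the members apart.

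Most members rose into gastrulation. Between stages 5 and 11, 10 of the 15 rose and 3 fell. These 10 included at least 1 probe set of vangl1, vangl2, prickle1, ptk7, ror2, shroom3 and daam1. For shroom3.L both stages lay under the array median, so its call is counted here but gives neither a fold nor a bound. Over all tested probe sets 67.0% were called in the same interval, 33.0% higher and 34.0% lower. The median change was 0.84 among the members and -0.03 among all. With poly-A scaling 12 members were called and none of the 13 changed direction.

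From the neural plate to the closed tube, stages 13 to 21, 10 of 15 members fell and 1, shroom3.L, rose. The 10 falls were of probe sets of 5 genes, so several report the same gene. Over all tested probe sets 65.9% were called, 29.6% lower and 36.3% higher. The median change was -0.32 among the members and 0.07 among all. This direction depended on the scaling: with the poly-A controls as reference 3 members were called, vangl1.L and shroom3.L higher and ror2.L lower, and 5 of the 10 falls turned to rises that were not called. In the same way 10 members, of 6 genes, fell and none rose from stage 21 to 31, against 25.4% and 26.9% of all (52.4% called). With poly-A scaling 5 were called: the falls of the prickle1 probe sets, and rises of intu.S and daam1.S (Xl2.25142.2.A1_s_at) that were not called before. Both ptk7 probe sets turned from a fall to an uncalled rise. Among all tested probe sets 12659 were then called, 93.8% of them higher. From stage 31 to 48, 8 members, of 5 genes, fell and none rose, against 39.7% and 29.7% of all (69.4% called). With poly-A scaling 7 were called, 3 of them rises of intu.S and daam1.S that were not called before. Among all tested probe sets 13678 were then called, 63.9% of them higher.

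**Figure D1:**
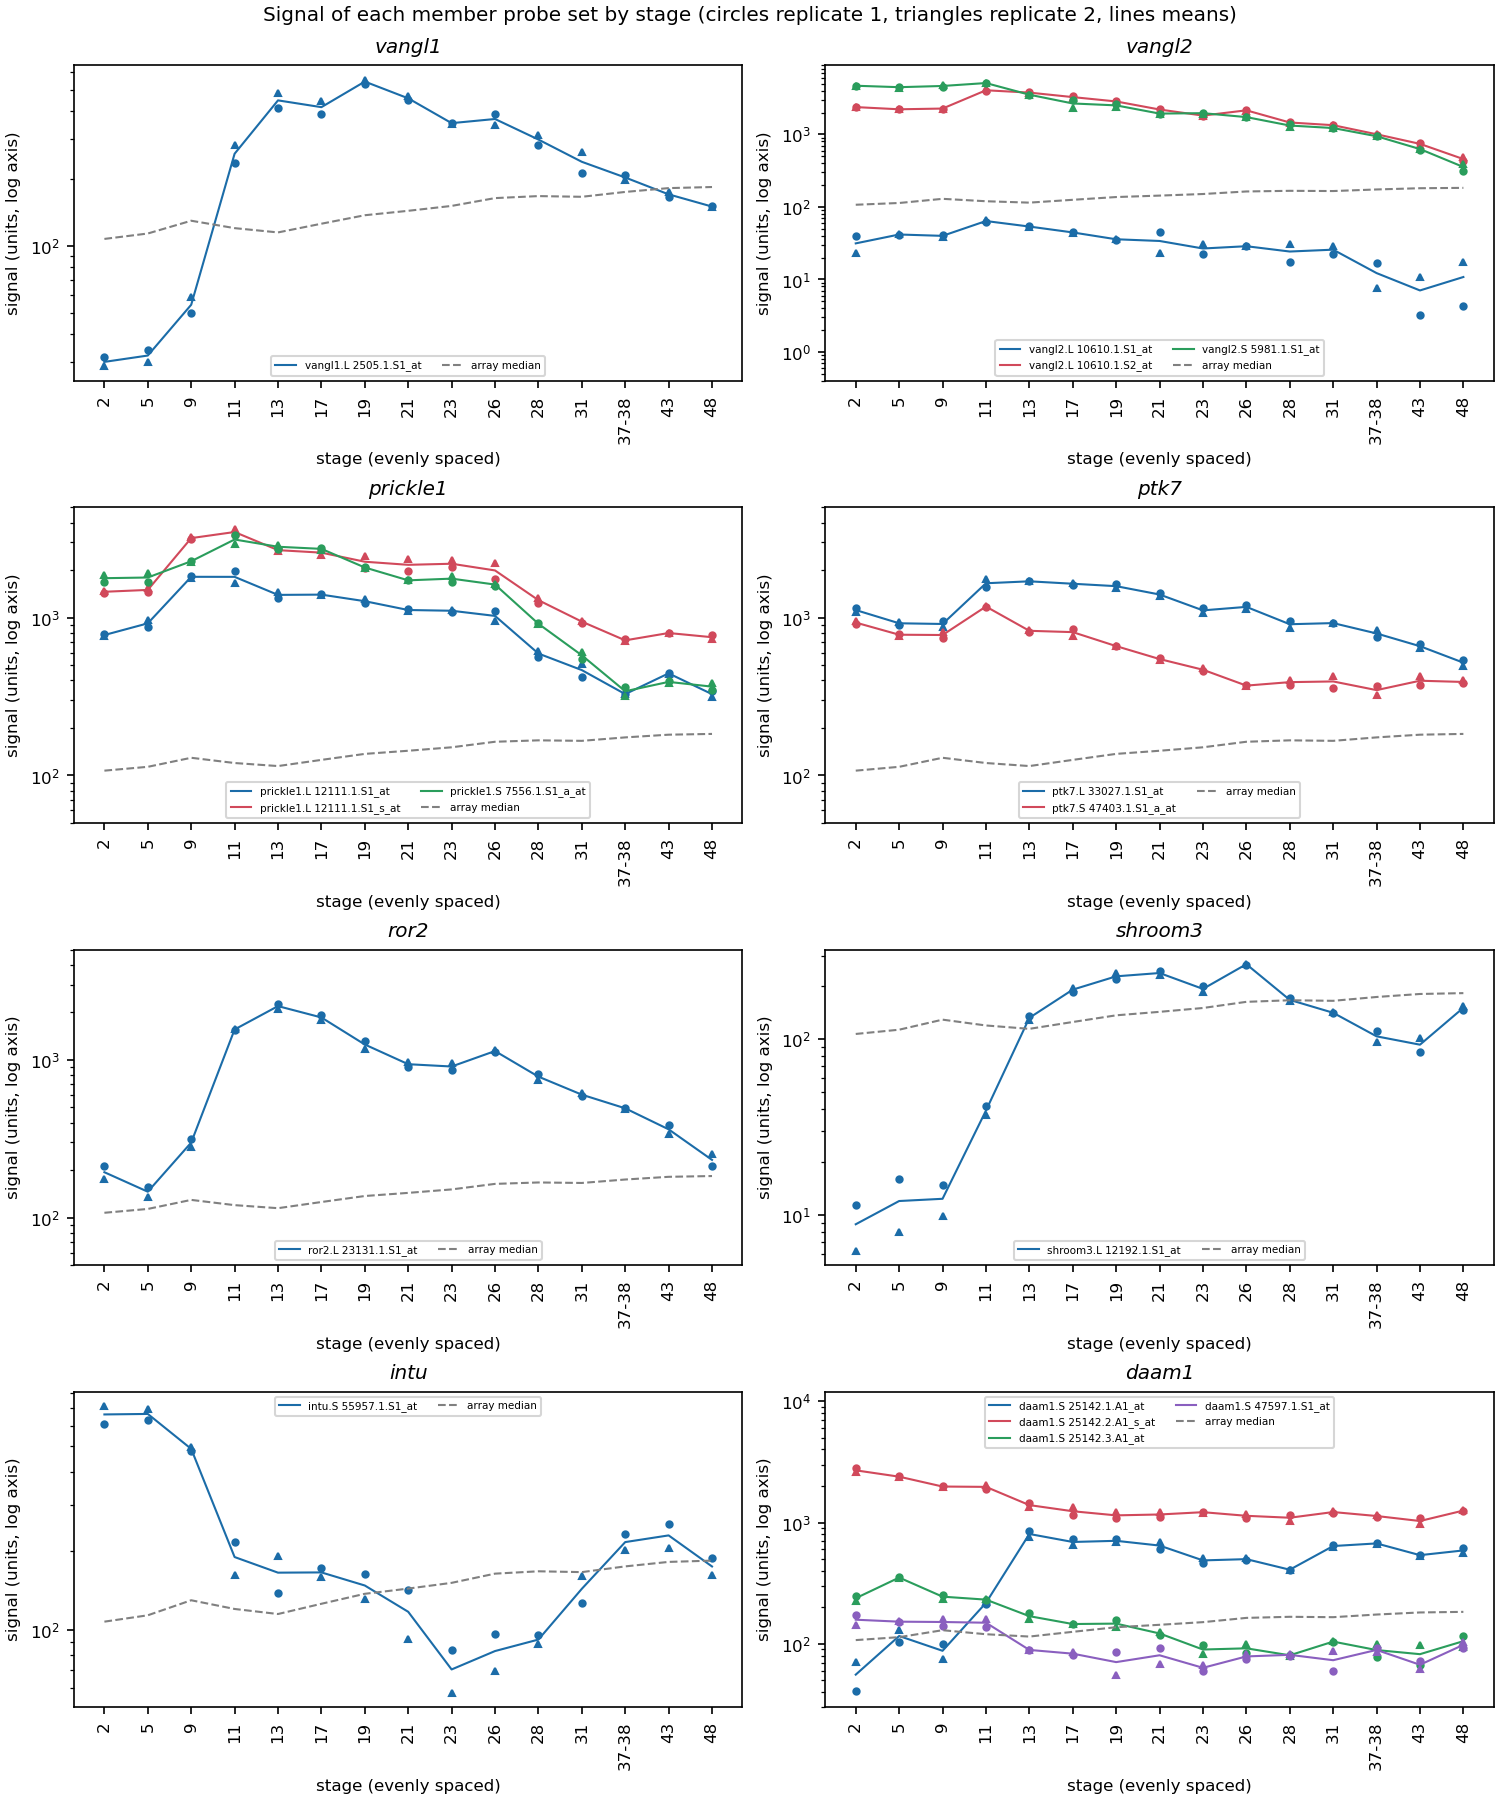
Signal in the authors' intensity units (log axis) against stage for every member probe set, with circles and triangles for replicates 1 and 2, lines through their means and a dashed grey line at the mean of the array medians. ror2.L climbs from 146 units at stage 5 to 2189 at stage 13, shroom3.L crosses the array median at stage 13, and intu.S starts at 662 units and is lowest at stage 23; under scaling to the poly-A controls, later falls of ptk7.L and prickle1.L do not keep their direction in every interval.

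Member calls in the remaining intervals numbered between 2 and 11. From stage 2 to 5, 2 members rose and 3 fell (18.3% and 13.7% of all, 32.0% called), and from stage 11 to 13, 4 rose and 7 fell (31.1% and 37.1% of all, 68.2% called). From stage 13 to 17 none rose and 2 fell (20.5% and 16.0% of all, 36.5% called), and the 2 were vangl2.L and vangl2.S. From stage 17 to 19, 1 rose and 4 fell (19.3% and 12.9%, 32.2% called), and from stage 19 to 21 none rose and 5 fell (9.43% and 7.93%, 17.4% called). With poly-A scaling the members called in these 3 closure steps were 0, 0 and 0, and 2 of the 5 falls from stage 19 to 21, those of prickle1.S and ptk7.S, turned to uncalled rises. Among all tested probe sets 3432, 3350 and 2204 were then called in these steps. The counts with the authors' scaling also rested on single arrays. From stage 19 to 21 the members called went from 5 to 1 or 3 without replicate 1 or 2 of stage 19 and to 2 without either array of stage 21, and all tested probe sets called went from 4062 to 1702 without replicate 1 of stage 19 and to 1853 without replicate 2 of stage 21. From stage 17 to 19 the members went from 5 to 2 without replicate 1 of stage 17 and to 3 without either array of stage 19. From stage 13 to 17 they went from 2 to 1 without replicate 1 of stage 13 or replicate 2 of stage 17, and from stage 2 to 5 from 5 to 2 without replicate 1 of stage 5 and to 3 without any 1 of the other arrays of these stages.

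Vangl proteins are the multi-pass membrane proteins of the planar polarity core. vangl1.L was under the array median in the early embryo, at 31.5 and 28.7 units at stage 2, 34.1 and 30.2 at stage 5 and 54.3 ± 6.11 (SD, n = 2) at stage 9. It read 235 and 282 units at stage 11, 416 and 482 at stage 13, 389 and 448 at stage 17 and 533 and 556 at stage 19, its highest stage. Both arrays of stage 11 lay above all 6 arrays of the earlier stages. The rise from stage 5 to 11 was at least 2.27-fold (adjusted p = 3.5e-14 in limma), and a further rise of 0.80 (SE 0.13, adjusted p = 2e-05) followed to stage 13. The rise from stage 17 to 19 was 0.38 (SE 0.13, adjusted p = 0.03), and it was lost without replicate 1 of stage 17 (0.28, adjusted p = 0.22) or without either array of stage 19 (0.41 and 0.35, adjusted p = 0.074 and 0.14), with quantile normalization (adjusted p = 0.086), median centring (adjusted p = 0.12) and poly-A scaling (adjusted p = 0.086).

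After closure vangl1.L went down, with 448 and 468 units at stage 21, 212 and 263 at stage 31 and 151 and 149 at stage 48. The fall from stage 21 to 31 was -0.95 (SE 0.13, adjusted p = 4.4e-06), and from stage 31 to 48 at least 1.29-fold to a level under the array median. With poly-A scaling neither fall was called, at -0.34 (adjusted p = 0.18) and -0.24 (adjusted p = 0.35). Between stages 13 and 21 its arrays overlapped and the change was 0.03 (SE 0.13, adjusted p = 0.83); this sign turned under median centring, where vangl1.L was called lower at -0.29 (adjusted p = 0.049), and with poly-A scaling it was called higher at 0.53 (adjusted p = 0.037). With its stages ordered by level, 6 of the 14 neighbouring pairs overlapped between replicates.

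vangl2, the gene mutated in the looptail mouse, in which the neural tube fails to close, lay above the array median at all 15 stages in both copies. The S copy read 4719.6 and 4672 units at stage 2, 4572 and 4398 at stage 5 and 5163 and 5067 at stage 11. Its change from stage 5 to 11 did not pass the test at 0.19 (SE 0.09, adjusted p = 0.075), but did with a fit of only the stages compared (adjusted p = 0.0061) and without either array of stage 17 or of stage 48, which alter only the shared spread (adjusted p = 0.031 and 0.035). Under poly-A scaling this change of vangl2.S turned to -0.06 (adjusted p = 0.82). The L copy read 2367 and 2401 units at stage 2, 2237 and 2208 at stage 5 and 3936 and 4197 at stage 11, and both stage 11 arrays lay above all earlier ones. It rose 1.83-fold from stage 5 to 11, a log2 change of 0.87 (SE 0.06, adjusted p = 2.1e-11).

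The vangl2 copies were lower at the end of closure than at its start. vangl2.L read 3879 and 3673 units at stage 13, 3412 and 3136 at stage 17, 2887 and 2816 at stage 19 and 2218 and 2196 at stage 21, with no overlap between any of these stages. Each of the 3 closure steps was a fall, by 0.21 (adjusted p = 0.0067), 0.20 (adjusted p = 0.01) and 0.37 (adjusted p = 0.00017) on the log2 scale, and the whole interval from stage 13 to 21 was -0.77 (SE 0.06, adjusted p = 3.3e-10). Leaving out 1 array removed the first of these calls without replicate 1 of stage 13 (adjusted p = 0.083) or replicate 2 of stage 17 (adjusted p = 0.12), and the second without replicate 1 of stage 17 (adjusted p = 0.15) or replicate 2 of stage 19 (adjusted p = 0.077). With quantile normalization the first and second steps also missed the threshold (adjusted p = 0.095 and 0.088), and with poly-A scaling none of the 3 steps was called (-0.17, -0.04 and -0.08, adjusted p = 0.61, 0.93 and 0.82) and the whole interval was -0.28 (adjusted p = 0.19).

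vangl2.S read 3525 and 3542 units at stage 13, 2999 and 2349 at stage 17, 2628 and 2406 at stage 19 and 1941 and 1938 at stage 21. It fell from stage 11 to 13 by 0.53 on the log2 scale (SE 0.09, adjusted p = 3.5e-05), where the change of vangl2.L was -0.11 (SE 0.06, adjusted p = 0.099). With poly-A scaling this fall of vangl2.S was -0.29 and not called (adjusted p = 0.21). The fall from stage 13 to 21 was -0.87 (SE 0.09, adjusted p = 7.9e-08); with poly-A scaling it was -0.37 (adjusted p = 0.099). Its stage 17 replicates lay apart, and without the lower one the step from stage 13 to 17 was -0.24 (adjusted p = 0.062). At stage 26 vangl2.L, with 2184 and 2119 units, lay above its stage 23 arrays (1815 and 1824) without overlap. By stage 48 vangl2.L stood at 427 and 488 units and vangl2.S at 315 and 396, and the falls from stage 31 to 48, -1.56 (SE 0.06, adjusted p = 2.1e-15) and -1.79 (SE 0.09, adjusted p = 5.4e-13), were among the member falls that were also called with poly-A scaling.

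Prickle1 is the cytoplasmic LIM-domain protein that binds Vangl on its side of the cell. Its 3 probe sets are Xl2.12111.1.S1_at and Xl2.12111.1.S1_s_at for the L copy and Xl2.7556.1.S1_a_at for the S copy, and the ending _s_at marks probes that can match more than 1 transcript. The _at set of prickle1.L read 787 and 766 units at stage 2, 877 and 963 at stage 5, 1841 and 1789 at stage 9 and 1978 and 1649.8 at stage 11. The step up of this _at set was complete at stage 9, whose arrays overlapped those of stage 11. The _s_at set read 3132 and 3255 units at stage 9 and 3356 and 3624 at stage 11, its highest stage, without overlap. prickle1.S read 1685 and 1909 units at stage 5, 2301 and 2255 at stage 9 and 3323 and 2935 at stage 11, where it was highest. The rises from stage 5 to 11 were 0.97 (SE 0.09, adjusted p = 1.1e-08) and 1.22 (SE 0.10, adjusted p = 4.4e-10) for the L probe sets and 0.80 (SE 0.08, adjusted p = 1.7e-08) for the S probe set.

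All 3 prickle1 probe sets fell after closure. prickle1.S read 2737 and 2892 units at stage 13, 1724 and 1724 at stage 21, 923 and 906 at stage 28 and 551 and 604 at stage 31. From stage 21 to 31 it fell 2.99-fold, a log2 change of -1.58 (SE 0.08, adjusted p = 4.3e-12). The L probe sets changed by -1.27 (SE 0.09, adjusted p = 1e-09) and -1.19 (SE 0.10, adjusted p = 3.1e-09) over the same interval. These 3 falls were the only member falls from stage 21 to 31 that were also called with poly-A scaling. Between stages 13 and 21 prickle1.S fell by 0.71 (SE 0.08, adjusted p = 1.7e-07) and the L probe sets by 0.32 and 0.31 (adjusted p = 0.0059 and 0.0069). With poly-A scaling the L probe sets turned to 0.18 each in that interval (adjusted p = 0.43 and 0.48) and prickle1.S was -0.21 (adjusted p = 0.38). The L falls also missed the threshold without replicate 2 of stage 13 for the _at set (-0.25, adjusted p = 0.073) and without replicate 1 of stage 21 for the _s_at set (-0.19, adjusted p = 0.14).

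Ror2 is a receptor tyrosine kinase that binds Wnt5 ligands and passes the signal to planar polarity. ror2.L read 213 and 175 units at stage 2, 156 and 136 at stage 5, 316 and 281 at stage 9, 1536 and 1577 at stage 11 and 2268 and 2109.9 at stage 13. Every array from stage 11 to 31 lay above every array of stages 2, 5 and 9. The rise from stage 5 to 11 was 10.7-fold, a log2 change of 3.42 (SE 0.11, adjusted p = 1.5e-16), and it went on to stage 13 with 0.49 (SE 0.11, adjusted p = 0.00041).

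ror2.L then went down while the tube closed, with 1926 and 1783 units at stage 17, 1323 and 1177 at stage 19 and 907 and 969 at stage 21. The fall from stage 13 to 21 was 2.33-fold, a log2 change of -1.22 (SE 0.11, adjusted p = 4.6e-09), and it was the only member fall of that interval also called with poly-A scaling, at -0.73. Its step from stage 19 to 21, -0.41 (SE 0.11, adjusted p = 0.011), was lost without replicate 1 of stage 19 (-0.33, adjusted p = 0.14) or replicate 1 of stage 21 (-0.37, adjusted p = 0.077), and with poly-A scaling (-0.12, adjusted p = 0.74). Stage 26, at 1123 and 1149 units, lay above the arrays of stages 21 and 23 without overlap. At stage 48 the arrays read 212 and 252 units. With the stages ordered by level, 2 of the 14 neighbouring pairs overlapped.

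Ptk7 is a membrane pseudokinase needed for convergent extension of the neural plate in the frog. ptk7.L read 902 and 941 units at stage 5 and 1559 and 1745 at stage 11, then 1703 and 1696 at stage 13, 1617 and 1664 at stage 17, 1635 and 1532 at stage 19 and 1434 and 1371 at stage 21. It rose by 0.84 (SE 0.07, adjusted p = 2.8e-09) from stage 5 to 11, and the arrays of stages 11 and 13 overlapped. None of the 3 closure steps of ptk7.L passed the test (adjusted p between 0.11 and 0.64), and the whole interval from stage 13 to 21 fell by 0.28 (SE 0.07, adjusted p = 0.0026); with poly-A scaling it turned to 0.21 (adjusted p = 0.3). ptk7.S read 789 and 771 units at stage 5, 1160.5 and 1192 at stage 11, 814 and 837 at stage 13 and 554 and 539 at stage 21. After a rise of 0.59 (SE 0.09, adjusted p = 5e-06), which with poly-A scaling was 0.35 (adjusted p = 0.13), it fell from stage 11 to 13 by 0.51 (SE 0.09, adjusted p = 3.5e-05; -0.26 and adjusted p = 0.26 with poly-A scaling).

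The later courses of the ptk7 copies also parted. ptk7.L fell from stage 31 to 48 by 0.83 (SE 0.07, adjusted p = 3.5e-09), from 928 and 919.8 units to 541 and 497. ptk7.S was at 373 and 369 units at stage 26, 360.4 and 428 at stage 31 and 383 and 400.0 at stage 48, and its change from stage 31 to 48 was -0.01 (SE 0.09, adjusted p = 0.96). Its calls from stage 17 to 19 and from 19 to 21 were each lost without any 1 of several arrays of those stages, with changes between -0.30 and -0.22 and between -0.29 and -0.25 and adjusted p from 0.061 to 0.18.

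Daam1 is a formin that binds Dishevelled in the planar polarity pathway. Its 4 probe sets all carry the symbol daam1.S and did not agree on a course. Xl2.25142.1.A1_at was under the array median at stages 2 and 9 and had an array under it at stage 5. It read 213 and 222 units at stage 11 and jumped to 855 and 754 at stage 13. That rise was 3.69-fold, a log2 change of 1.88 (SE 0.18, adjusted p = 1.1e-08), and its lowest later array, at stage 28, read 407 units. Xl2.25142.2.A1_s_at, whose probes can match more than 1 transcript, was highest at stage 2 with 2798 and 2588 units, read 1894 and 2040.4 at stage 11 and 1453 and 1330.5 at stage 13, and fell from stage 11 to 13 by 0.50 (SE 0.08, adjusted p = 2.1e-05).

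The remaining daam1.S probe sets also went down. Xl2.25142.3.A1_at read 357 and 346 units at stage 5 and 178 and 159.5 at stage 13, and was under the array median on both arrays from stage 21 on. Xl2.47597.1.S1_at was above it only up to stage 11, at 138 and 160.3 units, and read 88.7 and 89.3 at stage 13. It passed the filter only through those early stages, so its fall from them is not independent of the filter. Between stages 11 and 13 both probe sets fell, by 0.45 (adjusted p = 0.023) and by at least 1.3-fold (adjusted p = 0.0047). The first of these was lost without either array of stage 11 or replicate 2 of stage 13, with adjusted p from 0.06 to 0.13, and with quantile normalization (adjusted p = 0.13). With poly-A scaling the fall from stage 11 to 13 of these 3 probe sets was not called (adjusted p from 0.15 to 0.48), while the rise of Xl2.25142.1.A1_at was. Across the 15 stage means of log2(signal + 50), Xl2.25142.1.A1_at correlated with the other 3 at -0.904, -0.743 and -0.877, and these 3 correlated with each other at 0.864 to 0.937. From stage 5 to 11 Xl2.25142.2.A1_s_at fell by 0.28 (adjusted p = 0.0052), a call lost without replicate 1 of stage 11 (-0.23). Xl2.25142.3.A1_at fell by 0.60 (adjusted p = 0.0036), a call lost with quantile normalization (-0.38, adjusted p = 0.081). With poly-A scaling both were called. Their falls from stage 13 to 21 were each lost without replicate 1 of stage 13 or of stage 21. The annotation does not say which daam1.S transcript each probe set reports, so no single course is given for daam1.

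Shroom3 is the actin-binding protein that drives apical constriction in the bending neural plate. shroom3.L was under the array median up to stage 11, with 15.9 and 8.01 units at stage 5 and 41.4 and 37.0 at stage 11. It read 136 and 129 units at stage 13, 187 and 197 at stage 17, 219.6 and 237 at stage 19, 245 and 233 at stage 21 and 267 and 269 at stage 26, the highest stage. Both arrays of every stage from 13 to 26 exceeded their own median, 1 did at stage 28, and none did from stage 31 on. The change from stage 11 to 13 was called (adjusted p = 1.2e-05) and was at least 1.11-fold. shroom3.L passed the filter only through the stages from 13 to 26, so this call is not independent of the filter. From stage 13 to 17 the change of 0.53 (SE 0.28, adjusted p = 0.14) was not called. It was called with a fit of only the stages compared (adjusted p = 0.021) and with log2 of the signal plus 50 (0.41, adjusted p = 0.0015).

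The rise of shroom3.L from stage 13 to 21 was 1.8-fold, a log2 change of 0.85 (SE 0.28, adjusted p = 0.011), and every array of stages 17, 19 and 21 lay above both of stage 13. With poly-A scaling the rise was 1.34 and called. It was lost with quantile normalization (0.54, adjusted p = 0.068), with median centring (0.53, adjusted p = 0.089), and without replicate 2 of stage 13 or replicate 1 of stage 21 (0.81 in both cases, adjusted p = 0.054). From stage 21 to 31 it fell by at least 1.44-fold (adjusted p = 0.028), a call that was lost without any 1 of the 4 arrays compared (adjusted p from 0.075 to 0.11) and with poly-A scaling (adjusted p = 0.72).

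Intu is a planar polarity effector that acts in the building of cilia, shown in the frog in the multiciliated cells of the larval skin. intu.S fell into gastrulation, with 2 of the daam1.S probe sets, while most members rose. It read 611 and 713 units at stage 2, 633 and 697 at stage 5, 482 and 496 at stage 9 and 217 and 162 at stage 11. The arrays of stage 11 lay below all 6 earlier ones, and the fall from stage 5 to 11 was 3.55-fold, a log2 change of -1.83 (SE 0.23, adjusted p = 5.6e-07).

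intu.S was under the array median on both arrays from stage 21 to 31, with its lowest stage mean at stage 23 (83.6 and 57.4 units), and was above it again at stages 37-38 (231 and 200.4) and 43 (252 and 206). Its replicates lay far apart through the middle of the course: with the stages ordered by level, 12 of 14 neighbouring pairs overlapped. From stage 21 to 31 and from stage 31 to 48 the change of intu.S was not called (adjusted p = 0.27 in both). With poly-A scaling it was called higher in both (adjusted p = 0.0029 and 0.017). Each of these stages had an array under the median, so the calls give neither a fold nor a bound. The change from stage 13 to 21 missed the threshold at -0.51 (SE 0.23, adjusted p = 0.058), but passed it with quantile normalization (-0.83, adjusted p = 0.0048), median centring (-0.83, adjusted p = 0.0034) and log2 of the signal plus 50 (adjusted p = 0.039), and without replicate 1 of stage 13 (-0.75, adjusted p = 0.026) or of stage 21 (-0.82, adjusted p = 0.011). Under poly-A scaling the change of intu.S from stage 13 to 21 was -0.02 (adjusted p = 0.96), and its arrays of stages 13 and 21 overlapped. The summed signal of markers of multiciliated cells took another course. Over 11 tested genes it was 1578 to 1620.0 units at stage 2, 4746 to 5088 at stage 13 and 5897 to 6065 at stage 21, where intu.S read 142 and 92.1. At these stages 3, 10 and 7 of the 11 were above the median. The single markers were split: 5 were called higher and 3 lower from stage 5 to 11, and 6 higher and 3 lower from stage 13 to 21. The summed signal of 7 maternal transcripts went from 59043 to 62983 units at stage 2 to 10873 to 11787 at stage 11 and 274 to 281 at stage 21, with 7, 5 and 0 of them above the median. The part of maternal RNA in the early intu.S signal was not tested.

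**Figure D2:**
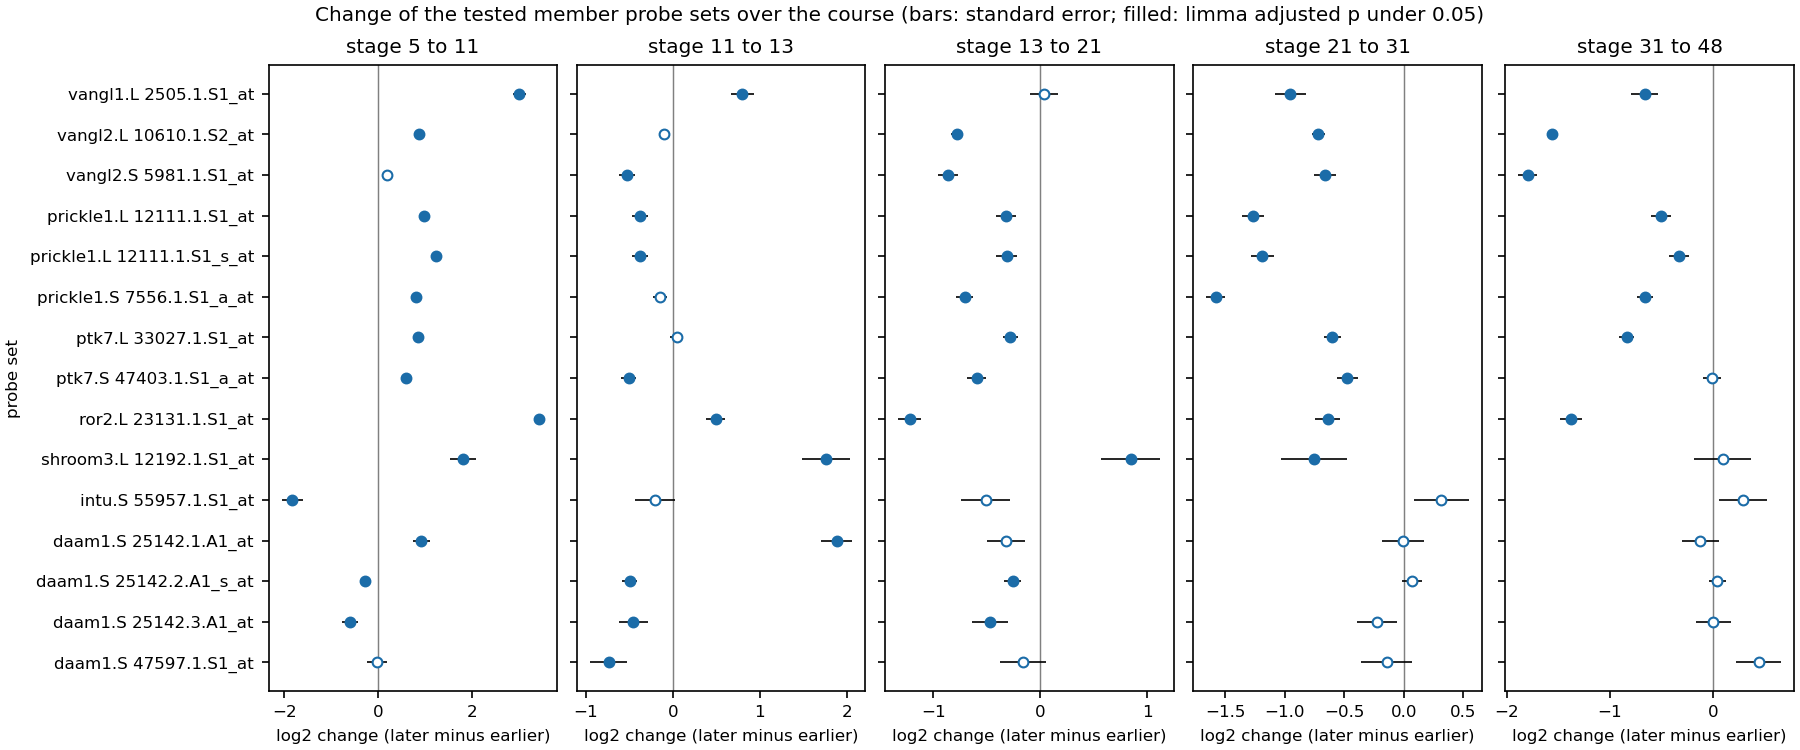
Log2 change (later minus earlier stage) with its standard error for the 15 tested member probe sets in 5 intervals, filled where limma's adjusted p was under 0.05. From stage 5 to 11 most filled points are rises, and the filled falls are of intu.S and daam1.S, which also has a filled rise. In the panels from stage 13 on, the filled points are falls apart from the rise of shroom3.L from stage 13 to 21. Of these falls 5 of 10 (stages 13 to 21), 2 of 10 (21 to 31) and 1 of 8 (31 to 48) turned sign under scaling to the poly-A controls.

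The L and S copies of vangl2, prickle1 and ptk7 were compared on the same array, where any factor common to the array cancels. This test was added after the values had been seen, and was run over all 1722 genes with a tested probe set of each copy. Probes differ in brightness, so a ratio of L to S says nothing of which copy is higher, and its change is the measure. The ratio changed for 58.9% of the pairs from stage 5 to 11, for 53.1% from stage 11 to 13 and for 51.6% from stage 31 to 48, so a change of ratio was common.

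For vangl2 the L share went up early. The log2 ratio of L to S rose by 0.68 (SE 0.08, adjusted p = 5.4e-07) from stage 5 to 11 and by 0.43 (SE 0.08, adjusted p = 0.00013) from stage 11 to 13. From stage 13 to 21 the change was 0.09 (SE 0.08, adjusted p = 0.34) and did not pass the test. For ptk7 the ratio rose from stage 11 to 13 by 0.55 (SE 0.14, adjusted p = 0.0023) and went back from stage 31 to 48 by -0.83 (SE 0.14, adjusted p = 7.6e-05). All 4 of these calls were kept in the alternatives run for the ratios, which included leaving out each array. A fit of only the stages compared and array weights by stage were not run for the ratios. A further rise of the vangl2 ratio from stage 31 to 48, 0.24 (SE 0.08, adjusted p = 0.014), was lost without replicate 1 of stage 31 (adjusted p = 0.085) or replicate 1 of stage 48 (adjusted p = 0.15).

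For prickle1 the ratio rose by 0.42 (SE 0.12, adjusted p = 0.0072) from stage 5 to 11, by 0.39 (SE 0.12, adjusted p = 0.013) from stage 13 to 21, where 49.2% of pairs changed, and by 0.39 (SE 0.12, adjusted p = 0.021) from stage 21 to 31, where 33.3% did. It also rose by 0.33 (SE 0.12, adjusted p = 0.032) from stage 31 to 48, where 51.6% of pairs changed. With the _at probe set of prickle1.L in place of the _s_at one, the first of these was 0.17 (adjusted p = 0.16) and the last 0.16 (adjusted p = 0.22). Each of these calls was also lost without 1 or more single arrays. The first was lost without replicate 2 of stage 5 (0.37) or of stage 11 (0.27), and the second without replicate 2 of stage 13 (0.33) or of stage 21 (0.27). The third was lost without replicate 1 of stage 21 (0.27) or either array of stage 31 (0.34 and 0.43). The last was lost without either array of stage 31 (0.38 and 0.29) or replicate 1 of stage 48 (0.22).

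**Figure D3:**
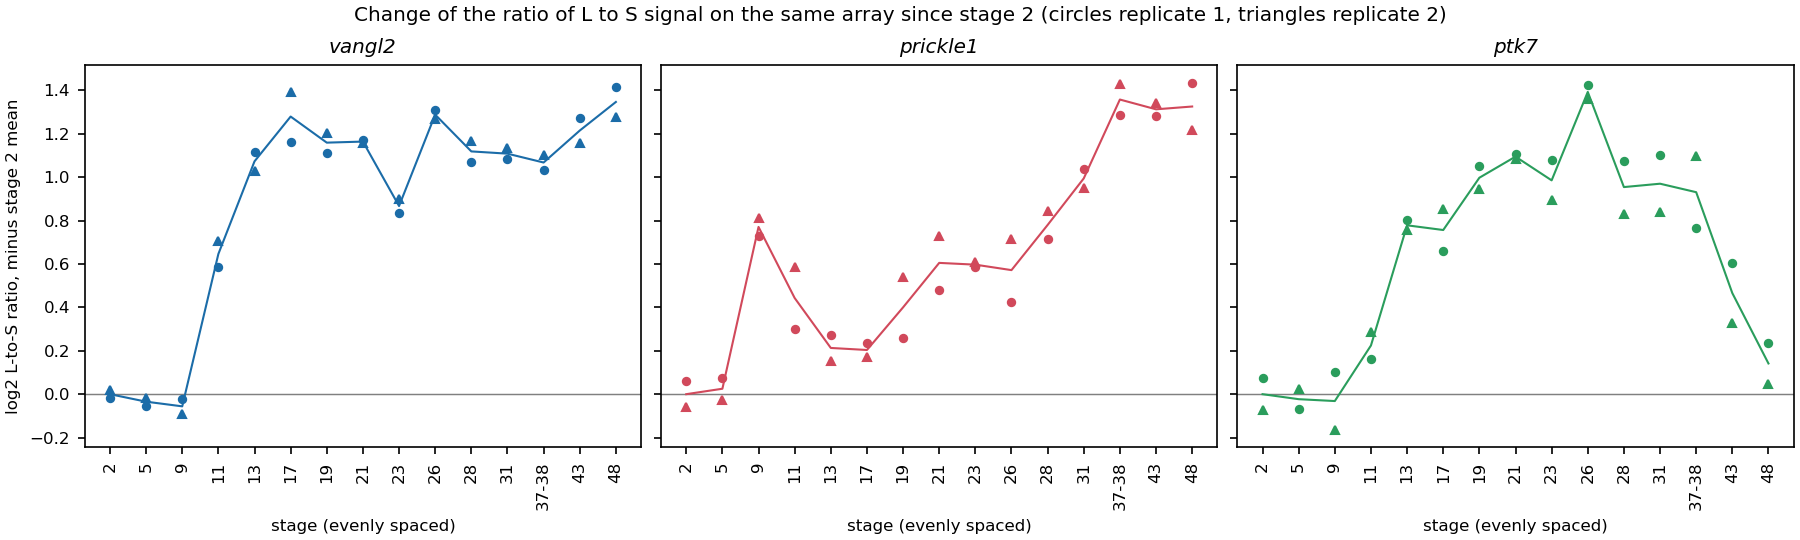
Log2 ratio of L to S signal on each array, minus its mean at stage 2, against stage for vangl2, prickle1 and ptk7, with circles and triangles for replicates 1 and 2 and lines through their means. The ratio of vangl2 climbs between stages 9 and 13, that of ptk7 climbs up to stage 26, is lower from stage 28 to 37-38 and drops further to stage 48, and that of prickle1 has an early peak at stage 9, comes back down to stage 17 and climbs from there.

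The members act with other proteins, which were followed in 5 companion lists of genes without a member among them, with 1 probe set standing for each gene. The lists were chosen with earlier results of these data known, so their counts are a description and not independent support. Of 14 listed genes of the planar polarity core and Dishevelled, 7 could be tested, and of 9 Wnt ligands and co-receptors listed for roles outside the beta-catenin branch 7. Of 14 ciliogenesis effectors 5 could be tested, and of 34 genes of apical constriction and the cytoskeleton 22. The last list holds 33 genes linked to closure of the mouse neural tube, not all of them by an open tube on their loss, and 24 could be tested. Over 8088 genes taken the same way, 33.4% rose and 35.3% fell from stage 5 to 11, and 38.7% rose and 32.2% fell from stage 13 to 21.

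Wnt ligands and receptors rose with the members into gastrulation. From stage 5 to 11, 6 of the 7 Wnt ligands and co-receptors rose and none fell, with a median change of 1.65 against -0.04 over all genes, and with poly-A scaling 5 rose and none fell. wnt5b.S, a ligand of the Wnt5 group, read 18.9 and 17.3 units at stage 5 and 532 and 598 at stage 11, at least 4.98-fold higher (adjusted p = 5e-11). fzd2.S, a receptor, was at least 5.63-fold higher, from 37.7 and 34.5 units to 610.2 and 669 (adjusted p = 9.6e-18). Among core genes 4 of 7 rose and 1 fell. fzd7.L, the Frizzled receptor of frog gastrulation, went from 55.7 and 59.3 units to 3036 and 3146, at least 27.2-fold (adjusted p = 4.3e-22), and dact1.L, a binding partner of Dishevelled, fell from 6039 and 6021 to 2844 and 2837 units, a log2 change of -1.09 (SE 0.05, adjusted p = 2.2e-13).

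From the neural plate to the closed tube, 5 of the 7 Wnt ligands and co-receptors fell and 1 rose, and 4 of the 7 core genes fell and 2 rose. wnt11b.L, the ligand that drives convergent extension in the frog gastrula, went from 3315 and 3644 units at stage 13 to 1359.8 and 1366 at stage 21, a log2 change of -1.35 (SE 0.14, adjusted p = 1e-07). wnt5b.S changed by -1.31 (SE 0.34, adjusted p = 0.0021). dvl1.L, a Dishevelled, was at least 1.41-fold higher, with 34.4 and 26.9 units at stage 13 and 149 and 175 at stage 21 (adjusted p = 1.5e-06). With poly-A scaling 3 of 7 Wnt genes were called lower, and in the core list 3 were higher and none lower.

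Genes of apical constriction and the cytoskeleton, the setting in which shroom3 works, had no direction that all scalings shared. From stage 13 to 21, 9 of 22 rose and 2 fell, with a median of 0.22 against 0.08 over all genes; the split was 17 higher and 0 lower with poly-A scaling but 5 higher and 8 lower with median centring. myl9.L, a myosin light chain, read 769.9 and 719.8 units at stage 13 and 4291 and 4290.2 at stage 21, a log2 rise of 2.53 (SE 0.10, adjusted p = 3.8e-14). myh9.L, a nonmuscle myosin heavy chain, went from 1905 and 2046 to 4667 and 4817 units, a rise of 1.26 (SE 0.05, adjusted p = 1.4e-13). pfn2.L, a profilin, went from 2234 and 2266 to 4069 and 4264 units. The summed signal of 5 skeletal muscle markers, all above the median at both stages, went from between 12714 and 14579 units to between 46835 and 47103, with 3 of the 5 higher and 2 lower, and the part of muscle cells in these rises was not tested.

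Of the genes linked to mouse neural tube closure, 15 of 24 fell and 4 rose from stage 13 to 21, with a median of -0.52 against 0.08. With poly-A scaling 4 fell and 5 rose. folr1.L, a folate receptor, went from 279 and 242 units to 25.0 and 40.3, at least 1.81-fold lower (adjusted p = 0.00025), while the folate carriers slc25a32.L and slc46a1.L rose, the first at least 3.69-fold and the second by 1.88 (SE 0.12, adjusted p = 3.3e-11). From stage 5 to 11, 13 of the 24 had risen and 6 fallen, with grhl3.S, an epidermal transcription factor, going from 4.17 and 7.24 to 2282 and 2585 units, at least 21.4-fold. Markers of the neural plate, 9 genes, summed to 24498 to 24662 units at stage 13 and 16882 to 17167 at stage 21, with 8 of 9 above the median at both stages. Of these, 2 were called higher and 6 lower, with a median change of -0.72. At stage 2 their sum was 24836 to 26059 units with 3 of 9 above the median, so a few bright genes can carry it. Notochord and organizer markers, 6 genes, summed to 9309 to 9319 and 7679 to 8237 units, with 6 and 5 above the median. The sum changed less than most of these genes: 4 of the 6 were called lower and 1 higher, with a median change of -1.97. Whether shares of these tissues had a part in the falls was not tested.

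The ciliogenesis effectors are the list to which the role of intu belongs. From stage 13 to 21, 1 of 5 rose, septin7.L with 0.47 (SE 0.05, adjusted p = 1.3e-07), and none fell, while with median centring 4 fell and 1 rose. From stage 5 to 11, where intu.S fell, 3 of 5 fell and 1 rose. septin2.S went from 2904 and 3017 to 1487 and 1509 units, a log2 change of -0.98 (SE 0.10, adjusted p = 1.5e-08), while the falls of mks1.L and tulp3.L (-0.32 and -0.28) were lost with quantile normalization (adjusted p = 0.47 and 0.63), and without replicate 1 of stage 5 (adjusted p = 0.093 and 0.1) among other single arrays.

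After closure most companion calls were falls with the authors' scaling and fewer were with poly-A scaling. From stage 21 to 31 the counts higher and lower were 0 and 3 in the core list, 1 and 4 in the Wnt list, 0 and 4 in the cilia list, 6 and 9 in the cytoskeleton list and 5 and 7 in the closure list, against 32.4% and 28.3% of all genes. With poly-A scaling they were 3 and 0, 1 and 1, 1 and 0, 9 and 2, and 10 and 1. From stage 31 to 48 they were 1 and 5, 0 and 6, 0 and 3, 6 and 11, and 8 and 9, against 30.6% and 45.2%, and with poly-A scaling 1 and 2, 0 and 2, 2 and 1, 9 and 2, and 11 and 4.

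**Figure D4:**
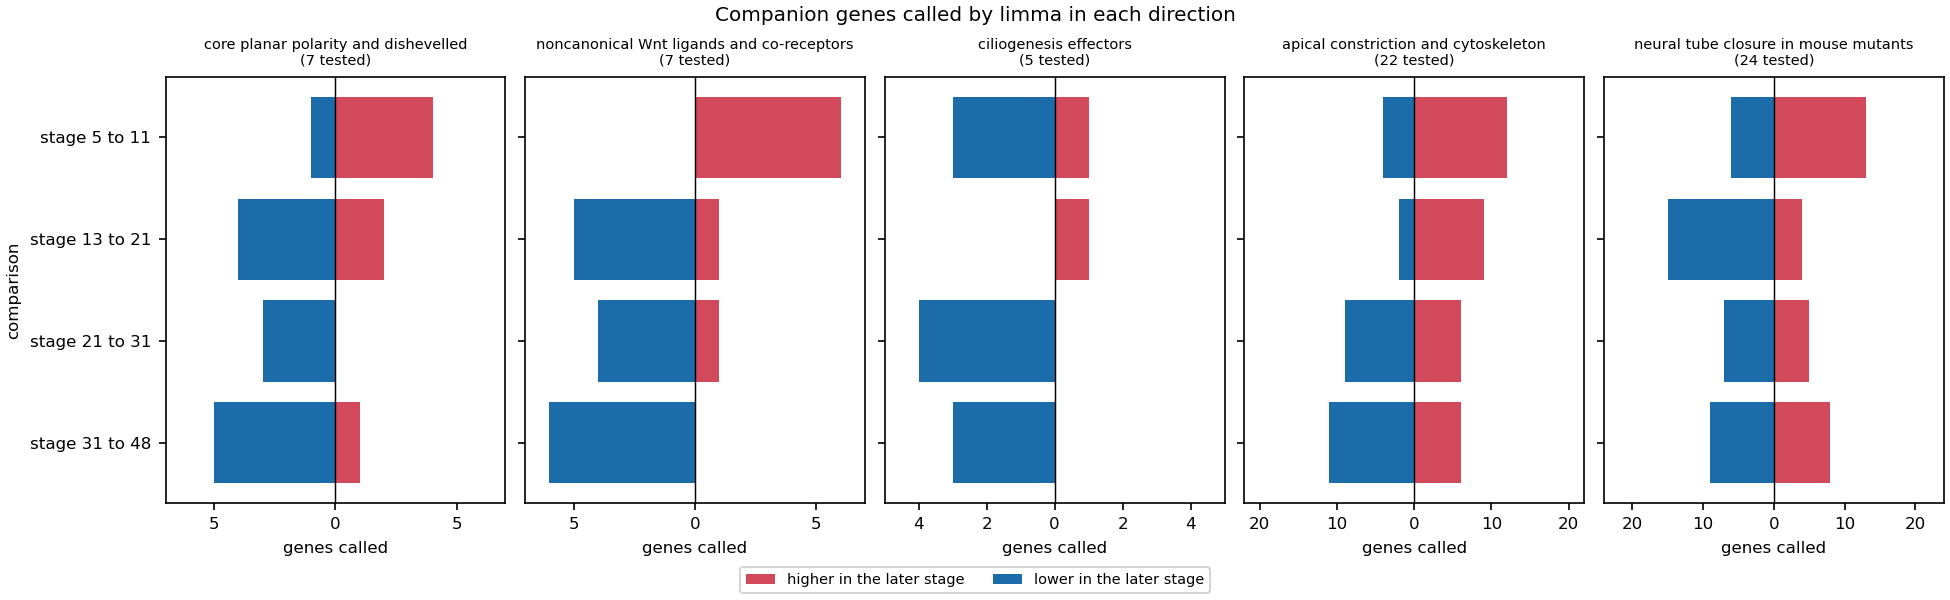
Genes called higher (red, to the right) and lower (blue, to the left) in the later stage in 4 comparisons, for the 5 companion lists, with the axis of each panel spanning the number tested. Wnt ligands and co-receptors are nearly all on the right from stage 5 to 11, and closure genes are mostly on the left from stage 13 to 21, where scaling to the poly-A controls left 4 on the left and 5 on the right, and median centring turned the cytoskeleton list from 9 against 2 to 5 against 8.

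The named genes whose course was most like a member were found by Pearson correlation over the 15 stage means of log2(signal + 50), among 7851 genes and with all points sharing the same arrays. The course of ror2.L was most like those of tbxt.2.S (0.977), a T-box factor of the mesoderm and notochord, znf703.S (0.977) and wee1.S (0.976). That of vangl1.L was most like stard10.L (0.989), arl1.L (0.987) and dapk2.L (0.985), and that of shroom3.L most like kcnj15.L (0.985), hapln3.L (0.983) and ccdc63.L (0.982). vangl2.S was most like ppp4r1.S (0.993), and prickle1.L, by its _s_at set, was most like esr-5.L (0.953) and epha2.L (0.952). ptk7.L was most like prpf4.L (0.980), sf3b1.S (0.979) and sf1.S (0.976), intu.S most like ppp3cc.L (0.967), and the _s_at set of daam1.S most like slc18a2.L (0.980). Between probe sets of different member genes, the correlations of largest size were those of vangl2.L with prickle1.S (0.943) and with ptk7.L (0.933) and that of intu.S with shroom3.L (-0.912), the last between courses that lie partly under the array median.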

How the data were processed

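RNA of 30 whole-embryo samples, 2 per stage at 15 stages, was measured on Affymetrix arrays. The authors deposited 1 linear intensity per probe set and array, made with MAS5 per the submitters' processing notes, of a version that the sources used here do not give. On every array the 2% trimmed mean over all probe sets was 500 units, so no further normalization was applied. Detection calls were not used here.

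Symbols came from the platform annotation, and all 16 member symbols were found in the RefSeq gene table (assembly v10.1), matched on Entrez identifiers and used for names only. Control probe sets, 96 in number, were left out. Log2 intensities were fitted with limma 3.58.1 in R 4.3.3: 1 mean per stage, 15 residual degrees of freedom, variances moderated robustly along an intensity trend, and Benjamini-Hochberg adjusted p-values called at 0.05. On simulated data with the same spread at every stage the fit kept false calls near its threshold. With each stage given its own spread, but the later stage of a comparison that of the earlier, it exceeded the threshold in all 9 comparisons. Array weights by stage did not correct this. Fitting only the stages compared came close, in a setting where both of those stages had equal spread. The fit over all arrays was kept as the design had set it. Figures used matplotlib 3.10.9 in Python 3.11.15.

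The members and companion lists were chosen with earlier results of these data known, and list members were named by a rule: up to 3 called genes per list and interval with the largest fitted change, no overlap between replicates and a brighter stage above the array median. The text gives a selection of these. A list gene was represented by its probe set with the highest mean. Alternatives were quantile normalization, median centring, scaling to poly-A controls, dropping the filter or raising it to the 75th percentile, adding 50 units before the log2, plain moderation, array weights by stage, omission of the _s_at and _x_at probe sets, a fit of only the stages compared, the replicate number as a block, and leaving out each array. For the ratios of L to S only quantile normalization, the added 50 units, plain moderation, omission of those probe sets, the block and leaving out arrays were run. The number of arrays limits the precision.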

Additional observations from a re-analysis of the deposited data

How the results depend on the processing

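Counts of called members and of all called probe sets stayed within 1.5 times of the values reported, apart from the following. Quantile normalization gave 1, 3 and 3 called members from stages 13 to 17, 17 to 19 and 19 to 21. Median centring, log2 of the signal plus 50 and the fit of only the stages compared each gave 4 from stage 13 to 17, array weights by stage gave 3 from stage 2 to 5, and the filter at the 75th percentile gave 7 from stage 11 to 13 and, with fewer probe sets tested, 14695 in the F test. Scaling to the poly-A controls gave 1, 4, 0, 0, 0, 3 and 5 called members from stages 2 to 5, 11 to 13, 13 to 17, 17 to 19, 19 to 21, 13 to 21 and 21 to 31, and 3010, 3432, 3350 and 2204 called probe sets in all from stages 2 to 5, 13 to 17, 17 to 19 and 19 to 21. Rises made up 57.3%, 49.2%, 45.5%, 56.2%, 60.0%, 54.3%, 55.1%, 51.4% and 42.8% of all calls in the 9 comparisons from stage 2 to 5 to stage 31 to 48, in the order of the background counts (2 to 5, 5 to 11, 11 to 13, 13 to 17, 17 to 19, 19 to 21, 13 to 21, 21 to 31, 31 to 48). With poly-A scaling they made up 72.1%, 36.4%, 61.0%, 71.4%, 88.7%, 96.9%, 85.4%, 93.8% and 63.9%, and with median centring 43.2%, 44.8%, 49.1%, 37.4%, 37.8%, 36.8%, 37.1%, 34.0% and 36.1%. Signs turned under poly-A scaling for prickle1.S (0.024) and ptk7.S (0.0219) from stage 19 to 21, for prickle1.L (0.18 in the _at and 0.18 in the _s_at set), ptk7.L (0.21), daam1.S (0.24 in the _s_at set and 0.0205 in Xl2.25142.3.A1_at) and the companion gene dact1.L (0.0013) from stage 13 to 21, for ptk7.L (0.0131) and ptk7.S (0.14) from stage 21 to 31 and for the _s_at set of prickle1.L (0.0928) from stage 31 to 48, and under median centring for vangl1.L (-0.29) from stage 13 to 21. Listed are only changes that were called with 1 of the scalings compared. Uncalled changes also turned sign under poly-A scaling, among them vangl2.S from stage 5 to 11 (-0.06) and vangl2.L from stage 11 to 13 (0.14). The cause was not tested. Leaving out each array gave 23356 to 23369 probe sets in the F test. In the comparisons in the order above it gave 5741 to 7541, 14273 to 15735, 14221 to 16127, 6140 to 8727, 4948 to 7727, 1702 to 4113, 13481 to 15577, 9960 to 12471 and 14625 to 16453 probe sets, and 2 to 6, 12 to 14, 9 to 11, 1 to 2, 2 to 6, 1 to 5, 8 to 12, 9 to 10 and 8 to 9 members. The lowest counts of members came without replicate 1 of stage 5 from stage 2 to 5, replicate 1 of stage 13 from stage 13 to 17, and replicate 1 of stage 17 from stage 17 to 19. The differences between replicates correlated across stages at -0.0594 to 0.0412 over 105 stage pairs, so no effect shared by a replicate number was seen. The labels do not say whether samples with the same replicate number shared a clutch or batch. The replicate number as a block moved 1 member, intu.S from stage 13 to 21, across the threshold (adjusted p = 0.048), and gave 12 called members there. Signals near or under the array median limit shroom3.L before stage 13, vangl1.L before stage 11, intu.S after stage 17 and the dimmer daam1.S probe sets.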
